A study of Mus musculus with 16 samples.

Results

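Histone acetyltransferases are the enzymes that transfer an acetyl group from acetyl-CoA to lysines of histones, and 8 genes encoding them were followed here in the livers of old mice given intermittent metformin. The 8 genes were Ep300, Crebbp, Kat2a, Kat2b, Kat5, Kat7, Kat8 and Hat1. Array probes were taken for them by the gene symbol or a synonym in the platform annotation, and those detected (detection p-value under 0.05) on all arrays of 1 or more diet groups were tested. This gave 10 probes for 7 of the 8 genes, of which 8 probes for the same 7 genes were tested, out of 11143 probes for 7816 named genes tested on the array. No probe carried the name of Crebbp in the annotation used, and that gene was not analysed here.

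Acetylation of histone tails loosens the contact between nucleosomes and DNA and creates docking sites for bromodomain proteins, and it is removed by histone deacetylases. The nuclear enzymes fall into families: Ep300 and Crebbp are coactivators that transcription factors such as CREB recruit to enhancers and promoters, Kat2a and Kat2b are the alternative catalytic subunits of the SAGA and ATAC complexes, and Kat5, Kat7 and Kat8 are MYST enzymes of the TIP60, HBO1 and MSL or NSL complexes. Hat1 acetylates newly made histone H4 before it is deposited on DNA. In liver, the coactivators with CREB and its partner Crtc2 act on genes of fasting metabolism, and the acetyl-CoA that all these enzymes use is also an intermediate of fat and sugar metabolism.

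RNA had been extracted from the livers of 13 male C57BL/6 mice that were bought at 104 weeks of age and fed a purified diet (AIN-93G) for a month before groups were formed. Of these, 4 stayed on that standard diet (SD), 5 received it with 1% metformin, a biguanide used against type 2 diabetes, on alternate weeks (EOW) and 4 received the same 1% metformin during 2 consecutive weeks of every month (2WM), for 17 weeks. The RNA was copied from an oligo-dT primer and hybridised to Illumina BeadArrays, with 2 arrays for 1 mouse of each group, so that 16 arrays stood for 13 mice. Repeat arrays of a mouse correlated at 0.994 to 0.996 over all probes, tested or not, differed by at most 0.415 log2 units for a tested probe of the 8 genes, and were averaged.

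A level below is the log2 signal of a probe relative to the mean of its array, with all arrays scaled to the same spread. The standard deviation of the log2 signal was 1.35 to 1.58 per array before this scaling and 1.462 after it. Levels are given in log2 units on that scale, so that a difference of 1 is about a factor of 2 in signal. Ratios of signal below are on the same scale. Levels are compared only between mice and not between probes. Errors after ± are standard deviations between mice. Median signal per array was 127.2 to 184.9, and 11457 to 12953 probes per array were detected. Hepatocyte markers were at 6.10 to 7.02 in all 13 livers (mean of the 4 of 6 markers tested), and the probes for the other markers, Alb and Fabp1, were detected on 4 and 0 of the 16 arrays. Correlations between mice were 0.950 to 0.991 apart from EOW mouse 4, which correlated with the others at 0.841 to 0.888. In that liver the mean of 4 T cell markers (Cd3d, Cd3e, Cd3g and Cd8b1) was 3.75, against −0.562 to −0.00883 in the other 12 mice. They were the tested ones of 10 listed T and NK cell markers, and of the others the probes for Cd8a, Cd4 and Gzmb were detected on 0 of 16 arrays, Gzma on 1 and Nkg7 on 9, so that no NK cell marker was tested. Values that this mouse moved most are given with and without it. In whole liver RNA, fewer cells of a type and less RNA per cell cannot be told apart.

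No probe of the 8 genes passed an adjusted p under 0.05 (limma, Benjamini-Hochberg over 11143 probes) in any comparison of diets. The differences furthest from 0 relative to their error were those of Ep300, whose mean level was lower in 2WM than in SD and in EOW, and of Kat2b, for which both probes had a lower mean in EOW than in SD. Kat2a, Kat5, Kat8 and Hat1 had group means within 0.16 log2 units of each other, and the EOW mean of Kat7 rested on 1 mouse. In no comparison did all mice of one group lie beyond all mice of the other for any of the 8 probes. Over all probes this was so for 2.40% (EOW below SD), 1.75% (EOW above SD), 3.66% (2WM below SD), 2.16% (2WM above SD), 1.97% (EOW below 2WM) and 1.99% (EOW above 2WM).

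**Figure D1:**
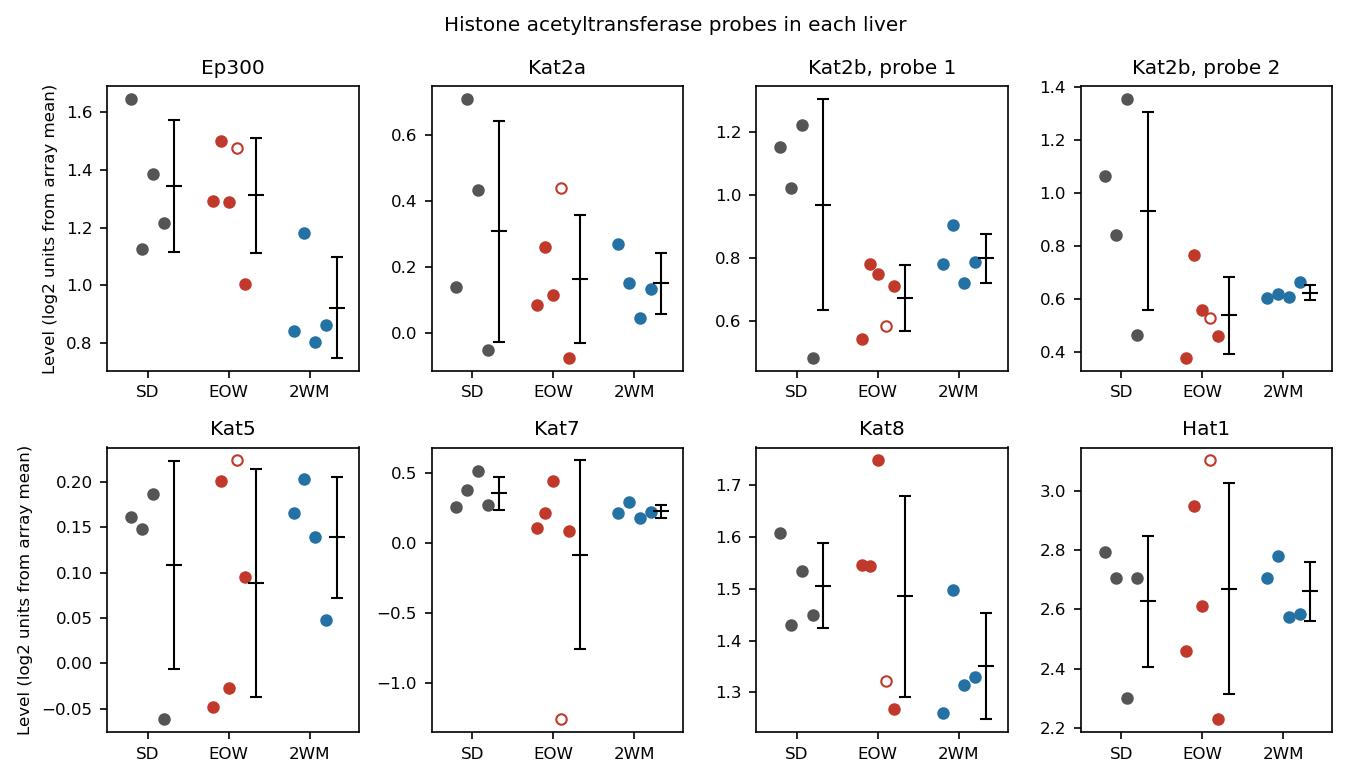
Level of each tested probe (log2 units from the array mean, y axis, scaled separately for each panel) in the livers of 4 SD, 5 EOW and 4 2WM mice, with 1 point per mouse, EOW mouse 4 as an open point, and the mean with its standard deviation to the right of each group. For Ep300, 3 of the 4 2WM mice sit below every SD mouse, and for Kat7 the open point lies at −1.26, far below the other 12 mice.

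Ep300 (chr15:81586209-81652077, GRCm38.p6) encodes p300, which carries the acetyltransferase domain, a bromodomain and several docking domains for transcription factors. Its probe (ILMN_2800358) was detected on all 16 arrays. In SD mice 1 to 4 its level was 1.65, 1.12, 1.39 and 1.22. In EOW mice 1 to 5 it was 1.29, 1.50, 1.29, 1.48 and 1.00. In 2WM mice 1 to 4 it was 0.84, 1.18, 0.80 and 0.86. The SD and EOW mice shared 1 range, whereas 2WM mice 1, 3 and 4 lay below every SD and every EOW mouse and 2WM mouse 2 lay inside both ranges.

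The order of the Ep300 means was SD (1.34 ± 0.23, n = 4), EOW (1.31 ± 0.20, n = 5) and 2WM (0.92 ± 0.17, n = 4). SD and EOW were neighbours that did not differ beyond their spread, with a log2 fold change of −0.032 in EOW (95% interval −0.32 to 0.26, limma adjusted p = 0.930). The log2 fold change of 2WM against SD was −0.42 (SE 0.14, 95% interval −0.73 to −0.12), which is 0.747 times the SD signal. It did not pass the test over all probes (limma adjusted p = 0.678), and the exact permutation test of the 4 mice against 4, two-sided, gave 0.0571, where 0.0286 is the smallest p possible. Against 2WM, the EOW mean was higher by 0.39 (SE 0.13, 95% interval 0.10 to 0.68), a ratio of 1.31, with a limma adjusted p of 0.342. The exact permutation p of that difference was 0.0397, the smallest p possible with 5 mice against 4 being 0.00794, and 4 of 5 EOW mice lay above every 2WM mouse. Permutation p-values are given without adjustment for the 24 differences of 8 probes in 3 comparisons.

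Sequence upstream of Ep300 and Kat2b is shown because these were the genes with the smallest p, and short stretches of the other promoters because of letters they share. All are from RefSeq on GRCm38.p6, from a table that holds the bases around each annotated start site. The table had at least 1 start site for each of the 8 genes, 11 in all, and the 300-base windows around them held 47.0% to 82.0% G and C, against a median of 52.7% over all 32851 windows. The letters searched, on both strands and chosen after the sequences had been read, were CCGGAAGT, which contains the core bound by ETS factors, TGACGT, which is the first part of the cAMP response element bound by CREB, and ATGGCG, which contains the core bound by YY1. A match is a description of these letters and not a binding site. For Ep300 the bases from −250 to −1 before the start site (chr15:81585964-81586213, plus strand) held none of them, and ATGGCG followed 36 bases into the transcript.
Ep300: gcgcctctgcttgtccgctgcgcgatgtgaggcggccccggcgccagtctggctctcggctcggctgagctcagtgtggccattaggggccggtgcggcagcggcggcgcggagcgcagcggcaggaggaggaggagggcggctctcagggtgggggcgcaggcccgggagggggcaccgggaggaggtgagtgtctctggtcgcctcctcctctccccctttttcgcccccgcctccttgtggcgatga

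Kat2a and Kat2b encode GCN5 and PCAF, closely related enzymes that acetylate histone H3 at promoters. Kat2a (chr11:100704746-100712485) had 1 probe (ILMN_2652749), detected on all 16 arrays. Its level was 0.14, 0.71, 0.43 and −0.051 in SD mice 1 to 4. EOW mice 1 to 5 were at 0.085, 0.26, 0.11, 0.44 and −0.075. 2WM mice 1 to 4 were at 0.27, 0.15, 0.045 and 0.13. The 3 groups overlapped, and SD mouse 2 was the highest of all 13 mice. The means ran from SD (0.31 ± 0.33) through EOW (0.16 ± 0.19) to 2WM (0.15 ± 0.093), and no neighbours in that order differed beyond their spread. Against SD the log2 fold change was −0.14 in EOW (95% interval −0.46 to 0.17) and −0.16 in 2WM (95% interval −0.49 to 0.18), with limma adjusted p of 0.668 and 0.940. Both moved with single SD mice, to −0.0095 in EOW and −0.024 in 2WM without SD mouse 2 and to −0.26 and −0.28 without SD mouse 4. Without EOW mouse 5 the EOW value was −0.083.

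Kat2b (chr17:53566774-53672721) had 3 probes. A probe detected on only 6 of 16 arrays (ILMN_2591641) was not tested, and ILMN_1215305 (probe 1) and ILMN_1231686 (probe 2) were detected on all 16. The level of probe 1 was 1.15, 1.02, 1.22 and 0.48 in SD mice 1 to 4. EOW mice 1 to 5 were at 0.54, 0.78, 0.75, 0.59 and 0.71. 2WM mice 1 to 4 were at 0.78, 0.90, 0.72 and 0.79. SD mice 1, 2 and 3 lay above every EOW and 2WM mouse and SD mouse 4 below all of them. The level of probe 2 was 1.06, 0.84, 1.35 and 0.46 in the SD mice. In EOW it was 0.38, 0.77, 0.56, 0.53 and 0.46, and in the 2WM mice 0.60, 0.62, 0.61 and 0.66. Here too SD mice 1, 2 and 3 were above every mouse on metformin, and EOW mice 1 and 5 were below SD mouse 4.

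For both Kat2b probes the order of the means was SD, 2WM and EOW. Those of probe 1 were 0.97 ± 0.33, 0.80 ± 0.077 and 0.67 ± 0.10, and those of probe 2 were 0.93 ± 0.37, 0.62 ± 0.027 and 0.54 ± 0.15. Against SD, the log2 fold change in EOW was −0.30 for probe 1 (SE 0.13, 95% interval −0.58 to −0.010) and −0.39 for probe 2 (SE 0.15, 95% interval −0.71 to −0.078). These are 0.815 and 0.761 times the SD signal, with limma adjusted p of 0.348 and 0.275 and exact permutation p of 0.119 and 0.0714. In 2WM the log2 fold change was −0.17 (limma adjusted p = 0.922) and −0.31 (limma adjusted p = 0.844), and EOW differed from 2WM by −0.12 (95% interval −0.41 to 0.16) and −0.086 (95% interval −0.40 to 0.23). The differences from SD depended on single SD mice. In 2WM they were −0.33 and −0.46 without SD mouse 4, with unadjusted limma p of 0.00397 and 0.00305 and limma adjusted p of 0.451 and 0.428, and −0.087 and −0.17 without SD mouse 3. Without SD mouse 1 the 2WM value of probe 1 was −0.11. For EOW against SD, the values without SD mouse 4 were −0.46 and −0.55, with limma adjusted p of 0.0911 and 0.0931. Without SD mouse 3 they were −0.21 and −0.25, and the unadjusted limma p, 0.0435 and 0.0185 with all mice, was 0.146 and 0.0738. Without SD mouse 1 the unadjusted limma p was 0.127 and 0.053. With 1 mouse left out in turn, the unadjusted p stayed under 0.05 in 2 of 13 cases for probe 1 and in 11 of 13 for probe 2. For Ep300 the same count was 13 of 13 both in 2WM against SD and in EOW against 2WM, while no limma adjusted p was under 0.05. The 250 bases before the Kat2b start site (chr17:53566721-53566970, plus strand) held ATGGCG on the minus strand, in capitals below, and neither of the other letters searched.
Kat2b: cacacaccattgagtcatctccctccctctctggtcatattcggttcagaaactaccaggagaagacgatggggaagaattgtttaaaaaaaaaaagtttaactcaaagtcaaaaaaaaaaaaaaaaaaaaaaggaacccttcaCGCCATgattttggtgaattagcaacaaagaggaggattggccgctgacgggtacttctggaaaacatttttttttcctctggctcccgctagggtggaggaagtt

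Kat5 (chr19:5603014-5611556), the TIP60 enzyme that acetylates histone H4 and also acts in the DNA damage response, had 2 probes, of which ILMN_1232000 was detected on 1 of 16 arrays and was not tested. The level of ILMN_2839973 was 0.16, 0.15, 0.19 and −0.062 in SD mice 1 to 4. In EOW mice 1 to 5 it was −0.049, 0.20, −0.028, 0.22 and 0.096, and in 2WM mice 1 to 4 it was 0.17, 0.20, 0.14 and 0.048. The groups overlapped throughout. The means were 0.14 ± 0.066 in 2WM, 0.11 ± 0.11 in SD and 0.089 ± 0.13 in EOW, with no neighbours differing beyond their spread. The 95% interval of the log2 fold change was −0.21 to 0.17 for EOW against SD and −0.17 to 0.23 for 2WM against SD.

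Kat7 (chr11:95271853-95310246), the HBO1 enzyme, which acetylates histones H3 and H4 and is known for its part in the licensing of replication origins, was read by ILMN_2665161. Its level was 0.26, 0.38, 0.51 and 0.27 in SD mice 1 to 4. Among EOW mice 1 to 5 it was 0.11, 0.21, 0.44, −1.26 and 0.087. Among 2WM mice 1 to 4 it was 0.22, 0.29, 0.18 and 0.22. EOW mice 1, 2, 4 and 5 and 2WM mice 1, 3 and 4 were below every SD mouse. In EOW mouse 4, the liver with high T cell markers, the signal of this probe was 89.1, and the array of that mouse was the only one of 16 on which it was not detected. The means were 0.36 ± 0.12 in SD, 0.23 ± 0.048 in 2WM and −0.082 ± 0.68 in EOW. The log2 fold change of EOW against SD was −0.44 (SE 0.26, 95% interval −1.01 to 0.13, limma adjusted p = 0.467, exact permutation p = 0.190) with all mice and −0.14 without EOW mouse 4. That of 2WM against SD was −0.13 (95% interval −0.73 to 0.47, limma adjusted p = 0.992, exact permutation p = 0.0857). This interval uses an error shared by the 3 groups, to which EOW mouse 4 contributes although it is in neither group compared. With only the SD and 2WM mice fitted, the unadjusted limma p was 0.170 (limma adjusted p = 0.624), against 0.648 in the fit of all groups. For EOW against 2WM the log2 fold change was −0.31 (95% interval −0.88 to 0.26, limma adjusted p = 0.684) with all mice and −0.014 without EOW mouse 4. The part of the T cell markers in the Kat7 value was not tested.

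Kat8 (chr7:127912517-127925838), known as MOF, acetylates histone H4 and was read by ILMN_2892122. Its level was 1.61, 1.43, 1.53 and 1.45 in SD mice 1 to 4. In EOW mice 1 to 5 it was 1.55, 1.54, 1.75, 1.32 and 1.27. In 2WM mice 1 to 4 it was 1.26, 1.50, 1.31 and 1.33. As for Ep300, 2WM mice 1, 3 and 4 lay below every SD mouse and 2WM mouse 2 did not. The means were 1.51 ± 0.082 in SD, 1.49 ± 0.19 in EOW and 1.35 ± 0.10 in 2WM. The log2 fold change of 2WM against SD was −0.16 (SE 0.11, 95% interval −0.39 to 0.079, limma adjusted p = 0.905, exact permutation p = 0.0857), and that of EOW against SD was −0.020 (95% interval −0.24 to 0.20). For EOW against 2WM the log2 fold change was 0.14 (95% interval −0.087 to 0.36, limma adjusted p = 0.652), and 0.18 without EOW mouse 4. Of the EOW mice, 3 of 5 lay above every 2WM mouse.

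Hat1 (chr2:71389260-71441622) works mainly on histones that are not yet part of chromatin and was read by ILMN_2747651. Its level was 2.79, 2.71, 2.30 and 2.71 in SD mice 1 to 4. In EOW mice 1 to 5 it was 2.46, 2.95, 2.61, 3.10 and 2.23. In 2WM mice 1 to 4 it was 2.70, 2.78, 2.57 and 2.58. The EOW mice held both the highest and the lowest value of all 13 livers. The means were 2.67 ± 0.36 in EOW, 2.66 ± 0.098 in 2WM and 2.63 ± 0.22 in SD, and no neighbours differed beyond their spread. The 95% interval of the log2 fold change against SD was −0.32 to 0.40 in EOW and −0.34 to 0.41 in 2WM. Without EOW mouse 4, the log2 fold change of EOW against SD was −0.073 for Ep300, −0.21 for Kat2a, −0.27 and −0.39 for the Kat2b probes, −0.053 for Kat5, 0.021 for Kat8 and −0.066 for Hat1, and that of EOW against 2WM was 0.35 for Ep300.

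The MYST genes and Hat1 shared the letters CCGGAAGT near a start site, which are shown in capitals in stretches of 30 bases, read along the gene for Kat5 and Kat7 and on the opposite strand (ACTTCCGG) for Kat8 and Hat1. In Kat5 they ran into TGACGT, so that both are in capitals and share a T. The stretches are chr19:5610065-5610094 (minus strand) for Kat5, chr11:95310232-95310261 (minus strand) for Kat7, chr7:127912502-127912531 (plus strand) for Kat8 and chr2:71389215-71389244 (plus strand) for Hat1.
Kat5: agcgcactcagctCCGGAAGTGACGTctcc
Kat7: tgacgcaagcctcagCCGGAAGTtaaggaa
Kat8: gctctctggccggtcACTTCCGGcacagca
Hat1: cgtaagtccttgcggtcACTTCCGGcccgg

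These letters were in 4 of the 11 windows of the 8 genes and in 3.89% of all 32851 windows. ATGGCG was in 5 of the 11 windows (Ep300, Kat2b, Kat7, Kat8 and Hat1) and in 8.93% of all windows. TGACGT was in 3 of the 11 windows (Kat5 and Kat8) and in 7.51% of all. Because the letters were chosen after these windows had been read, the counts cannot test whether they are more frequent here. Kat2a and Crebbp held none of the 3. The array measures RNA and says nothing of what binds these stretches.

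**Figure D2:**
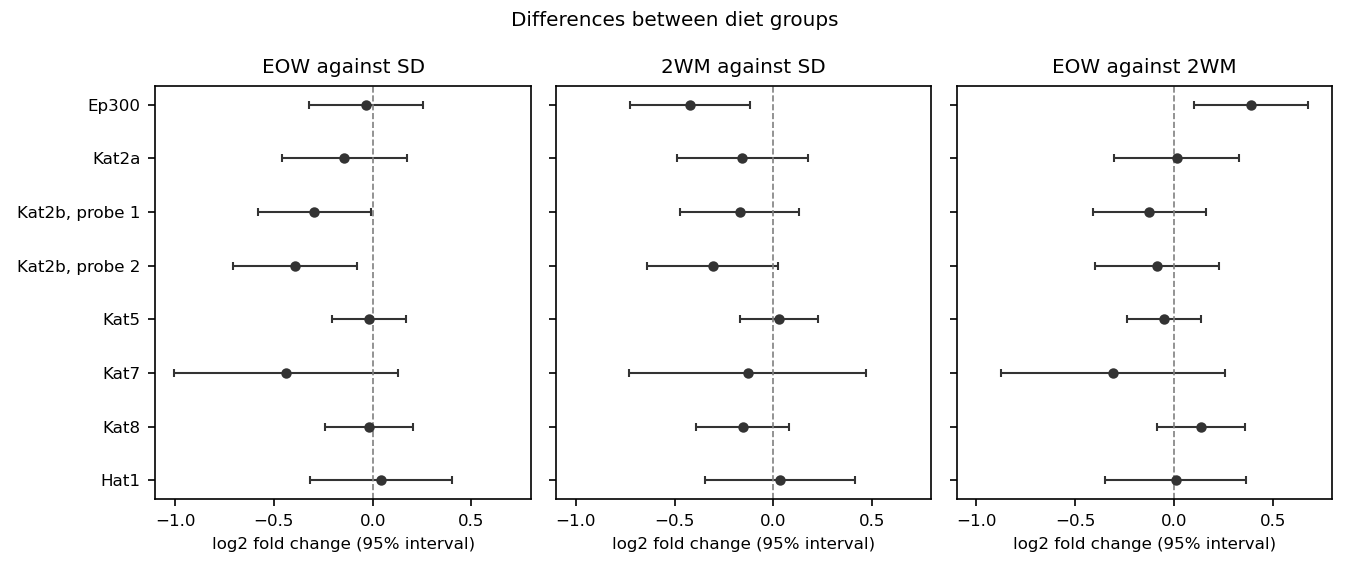
Log2 fold change (x axis) of each tested probe in the 3 comparisons of diets, as points with the 95% interval from the limma fit over 13 mice as bars, and a dashed line at 0. The interval leaves out 0 for both Kat2b probes in EOW against SD and for Ep300 in 2WM against SD and in EOW against 2WM, and none of these passed the adjusted threshold.

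At an adjusted p under 0.05 (limma), 0 of 8 were called in each of the 3 comparisons and by the F test over the 3 groups, where 0% of the 11143 probes were called as well. At an unadjusted limma p under 0.05, 2 of 8 were lower in EOW than in SD, both of them Kat2b, against 8.25% of all probes, and 0 were higher, against 5.59%. In 2WM against SD, 1 of 8 (Ep300) was lower, against 3.71% of all probes, and 0 were higher, against 2.23%. In EOW against 2WM, 1 of 8 (Ep300) was higher, against 5.26% of all probes, and 0 were lower, against 5.40%. The F test over the 3 groups gave an unadjusted p under 0.05 for 2 of 8, against 11.9% of all probes, namely Ep300 (F = 5.74, limma adjusted p = 0.331) and probe 2 of Kat2b (F = 3.86, limma adjusted p = 0.419).

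Against SD, the log2 fold change was negative for 7 of the 8 probes in EOW, where it was negative for 55.2% of all probes, and for 6 of 8 in 2WM, where it was negative for 56.8%. Over the 25 alternatives these counts ran from 5 to 8 in EOW and from 6 to 8 in 2WM. Median centring gave 8 and 8, with 67.5% and 77.2% of all probes negative, and relative to the median of all probes under that scaling 7 and 7 were negative. Both comparisons share the SD mice, and the probes of Kat2b read 1 gene. The median log2 fold change of the 8 probes was −0.088 in EOW and −0.16 in 2WM, beside −0.026 and −0.026 over all probes. Between EOW and 2WM it was −0.021, beside 0.0029 over all probes.

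Across the 13 livers, some of these genes varied together. The correlations that follow are over mice of all 3 groups, which share the array scaling and the group differences, and are given as a description. The Kat2b probes, annotated to the same transcript, correlated at r = 0.92 (Spearman rho 0.93), and at 0.92 without EOW mouse 4. Ep300 and Kat8 correlated at r = 0.66 (rho 0.72) over 13 mice and at 0.81 (rho 0.87) over the 12 mice without EOW mouse 4. Kat2a correlated with probe 1 of Kat2b at r = 0.48 (rho 0.57) and at 0.64 (rho 0.80) without that mouse, and with Kat5 at 0.54 (rho 0.73) and 0.49 (rho 0.70). Kat7 and Hat1 correlated at r = −0.53 over 13 mice and at 0.044 over 12, so that the negative value rested on EOW mouse 4, in which Kat7 was lowest and Hat1 highest. The highest r of Hat1 with another gene of the set was 0.39 with all mice (Ep300, rho 0.48), and its highest rho was 0.51 (Kat5, r = 0.38).

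**Figure D3:**
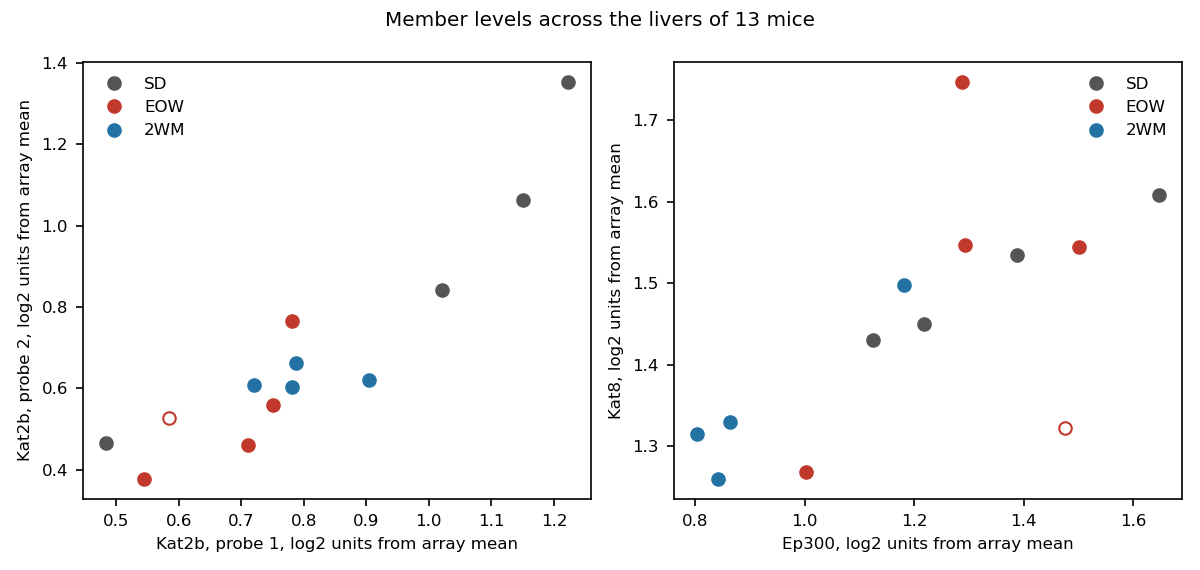
Levels of the Kat2b probes against each other (left) and of Kat8 against Ep300 (right), in log2 units from the array mean, with 1 point per mouse, coloured by diet group and with EOW mouse 4 as an open point. The Kat2b probes order the mice alike (rho 0.93), with SD mice 1, 2 and 3 at the top right, and on the right 3 of the 4 2WM mice lie at the lower left.

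The genes outside the set whose levels ordered the 13 mice most like each member were found among 10484 named probes by Spearman's rho, as a description with values without EOW mouse 4 in parentheses. For Ep300 they were Rfx2, a transcription factor, at 0.91 (0.91) and Cemip2 at 0.89 (0.88). For Kat2a they were Rbbp7, a histone-binding protein, at 0.97 (0.97 by its probe ILMN_2691187) and Aagab at 0.95 (0.94). For Kat2b they were Rffl, a ubiquitin ligase, at 0.97 (0.97) and Itga5, an integrin subunit, at 0.96 (0.97). The nearest to Kat5 were Smap2 at 0.92 (0.90) and Arl2bp at 0.89 (0.86), and those nearest to Kat7 were Pycrl, an enzyme of proline synthesis, at 0.93 (0.91) and Lman2l at 0.92 (0.90). Kat8 was closest to Tle6 at 0.92 (0.91) and Ehbp1 at 0.88 (0.85), and Hat1 to Myo7a, a myosin, at 0.93 (0.92) and Dapk2, a kinase, at 0.91 (0.92).

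The partners of these enzymes, the deacetylases that oppose them and the bromodomain proteins that read their mark were looked at as 9 further lists with 106 genes, of which 64 were tested, each by its brightest probe. None was called at an adjusted p under 0.05 (limma). At an unadjusted limma p under 0.05, 2 of 64 were lower and 3 higher in EOW than in SD (3.125% and 4.688%), against 8.25% and 5.59% of all probes. In 2WM against SD 3 were lower and 0 higher, against 3.71% and 2.23% of all probes, and in EOW against 2WM 0 were lower and 2 higher, against 5.40% and 5.26%. The genes so counted in EOW against SD were Naa60 and Hdac11 (lower) and Morf4l1, Yeats4 and Brpf1 (higher). Those in 2WM against SD were Hdac11, Sin3a and Ing3, and those in EOW against 2WM were Ing3 and Asf1a. The median log2 fold change of the 64 genes was 0.0098 in EOW and −0.057 in 2WM against SD. Permutation p-values of list genes below are also unadjusted, for genes picked by their limma p. Where all mice of one group lay beyond all of the other, the permutation p is the smallest possible by construction.

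Among other acetyltransferases, 9 of 13 genes were tested and Naa60, which acetylates protein N termini and has been described to act on histone H4, had the smallest p in EOW. Its level was −0.074, −0.063, 0.41 and −0.25 in SD mice 1 to 4, and −0.31, −0.39, −0.31, −0.45 and −0.33 in EOW mice 1 to 5. All EOW mice were below all SD mice, which was so for 2.40% of all probes. The log2 fold change was −0.36 (SE 0.11, limma adjusted p = 0.223, exact permutation p = 0.00794, the smallest possible), and −0.23 without SD mouse 3. In 2WM it was −0.20 (limma adjusted p = 0.888), and −0.063 without SD mouse 3.

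Of the deacetylases and their corepressors, 10 of 14 were tested, and Hdac11, the only class IV deacetylase, had the smallest p against SD in both metformin groups. Its level was 0.49, 0.63, 0.85 and 0.75 in SD mice 1 to 4. In EOW mice 1 to 5 it was 0.43, 0.75, 0.20, 0.19 and 0.012, and in 2WM mice 1 to 4 it was 0.36, 0.11, 0.038 and 0.43. All 2WM mice were below all SD mice, which was so for 3.66% of all probes, and 4 of 5 EOW mice were. The log2 fold change was −0.44 in 2WM (SE 0.15, limma adjusted p = 0.709, exact permutation p = 0.0286, the smallest possible) and −0.36 in EOW (SE 0.15, limma adjusted p = 0.303, exact permutation p = 0.0635). Sin3a, a corepressor scaffold, was the other gene of this list with an unadjusted p under 0.05 (2WM against SD, log2 fold change −0.25, limma adjusted p = 0.816), and it is named after its value was seen.

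Of 15 TIP60 subunits 14 were tested. Ing3, which reads methylated histone H3, was at 0.050, 0.087, 0.043 and 0.072 in SD mice 1 to 4 and at −0.13, −0.12, −0.21 and −0.25 in 2WM mice 1 to 4. It had the smallest p of this list in 2WM against SD. All 2WM mice were below all SD mice, which was so for 3.66% of all probes, while the EOW mice ranged from −0.26 to 0.26. The log2 fold change in 2WM was −0.24 (SE 0.099, limma adjusted p = 0.807, exact permutation p = 0.0286, the smallest possible). In EOW against SD the smallest p in this list belonged to Morf4l1 (log2 fold change 0.18, limma adjusted p = 0.337), a chromodomain protein, and Yeats4, a reader of acetylated lysine, also had an unadjusted p under 0.05 (0.26, limma adjusted p = 0.351, and 0.17 without SD mouse 2) and is named after its value was seen. The median log2 fold change of the 14 genes was 0.11 in EOW and −0.021 in 2WM against SD.

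In the other lists the smallest p belonged to the following genes. Of the SAGA and ATAC subunits, with 9 of 19 tested and 0 at an unadjusted p under 0.05, they were Tada1 in EOW (log2 fold change −0.26, limma adjusted p = 0.409) and Usp22, the deubiquitinase of SAGA, in 2WM (0.18, limma adjusted p = 0.897), both against SD. Of the HBO1 and MOZ partners, with 3 of 9 tested, Brpf1 in EOW was at 0.31 (limma adjusted p = 0.335) and Jade1 in 2WM at −0.40 (limma adjusted p = 0.856), which was −0.23 without SD mouse 4 and −0.25 without 2WM mouse 3. Of the MSL and NSL partners of Kat8, with 8 of 11 tested, Ogt in EOW was at 0.25 (limma adjusted p = 0.653) and Kansl3 in 2WM at −0.12 (limma adjusted p = 0.913). The Ogt value was 0.020 without EOW mouse 4, 0.12 without SD mouse 2 and 0.39 without EOW mouse 5. The Hat1 partners and histone chaperones had 3 of 5 tested, and there Rbbp7 in EOW was at −0.33 (probe ILMN_2691192, limma adjusted p = 0.366) and Nasp in 2WM at −0.28 (limma adjusted p = 0.854).

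Of the partners of p300 and its relative, 6 of 9 were tested. Cited2, which binds p300, had the smallest p in EOW against SD (log2 fold change −0.27, limma adjusted p = 0.388, and −0.16 without SD mouse 3), and Crtc2, the CREB coactivator, in 2WM against SD (−0.18, limma adjusted p = 0.896). Between EOW and 2WM it was Ppargc1a, a coactivator of fasting metabolism that works with p300. Its level was 1.67, 0.74, 0.89, −0.28 and 1.37 in EOW mice 1 to 5 and 0.075, 0.51, 0.18 and 0.53 in 2WM mice 1 to 4, a log2 fold change of 0.55 (SE 0.31, limma adjusted p = 0.550) in which EOW mouse 4 lay below every 2WM mouse and the other 4 EOW mice above, and 0.84 without that mouse and 0.35 without EOW mouse 1. The smallest p between EOW and 2WM belonged in the remaining lists to Clock, Tada3, Ing3, Jade1, Msl1, Asf1a, Hdac6 and Brd9, with limma adjusted p of 0.446 to 0.763. Only 2 of 11 bromodomain readers were tested, and neither Brd9 in EOW (0.17, limma adjusted p = 0.666) nor Brd2 in 2WM (0.060, limma adjusted p = 0.996) passed the test against SD. Without EOW mouse 4 the Brd9 value was 0.0042, without SD mouse 4 it was 0.11 and without EOW mouse 5 it was 0.26.

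**Figure D4:**
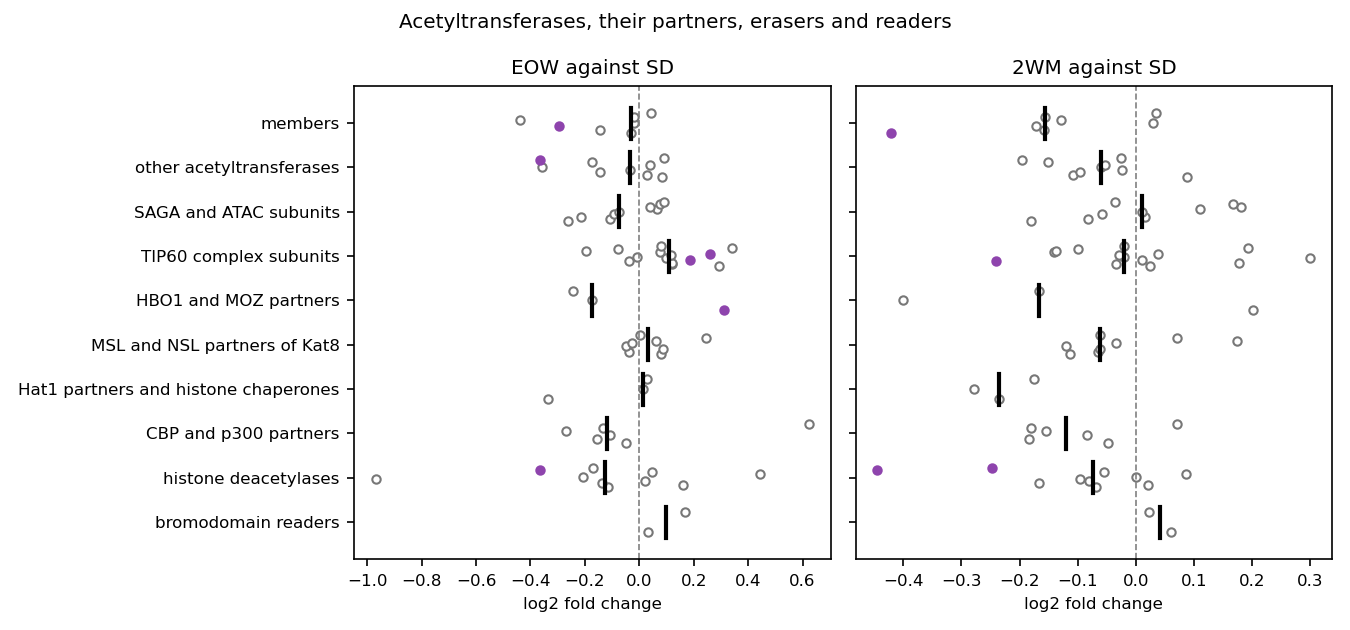
Log2 fold change against SD (x axis) in EOW (left) and 2WM (right) of every tested gene of the 8 acetyltransferase genes and of 9 further lists (rows), each gene read by its brightest probe. Filled points have an unadjusted limma p under 0.05 and open points do not, and the black bar is the list's median, which was −0.032 in EOW and −0.16 in 2WM for the acetyltransferases.

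How far the differences of Ep300, Kat2b and Kat7 moved with the processing is shown in the plot of their alternatives. Over 25 alternatives the log2 fold change of Ep300 in 2WM against SD ran from −0.53 to −0.32, and that of EOW against 2WM from 0.34 to 0.48. For Kat2b in EOW against SD it ran from −0.46 to −0.21 for probe 1 and from −0.55 to −0.25 for probe 2. That of Kat7 in EOW against SD ran from −0.77 to −0.14.

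**Figure D5:**
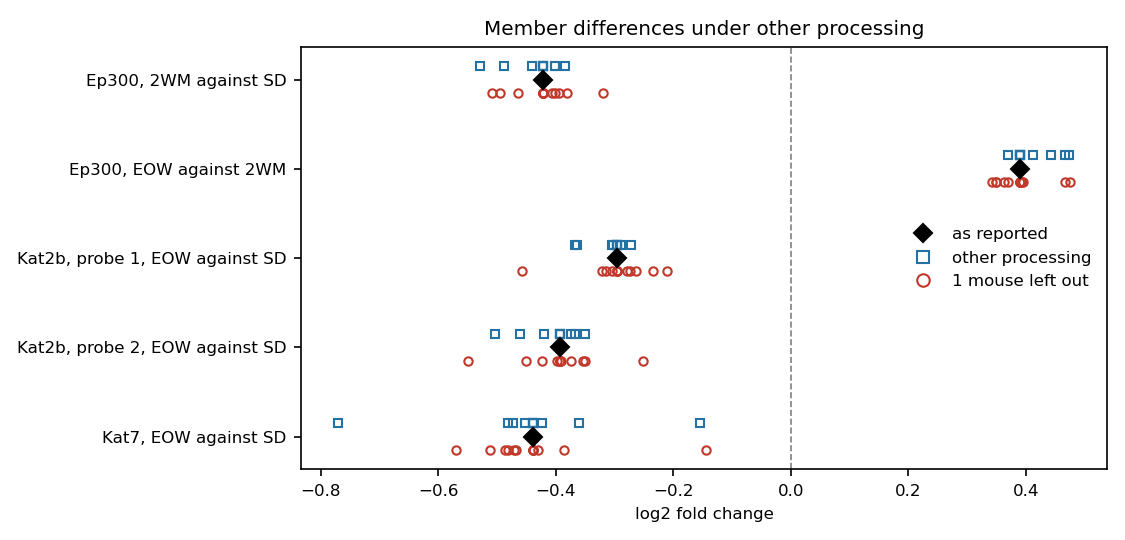
Log2 fold change (x axis) of 5 differences (rows) as reported (diamonds), under 12 other ways of processing (squares) and with each of 13 mice left out in turn (circles), with a dashed line at 0. All values of a row lie on 1 side of 0, and for Kat7 the circle nearest 0 is the value without EOW mouse 4.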

How the data were processed

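The authors deposited the probe intensities of 16 arrays, named non-normalized, and a detection p-value for each probe. They also deposited a Z score per probe and array, which equals the Z score of the log2 signal (largest difference 0.000106; column medians −0.511 to −0.471). Submitters' notes name GenomeStudio 2011.1. The platform annotation gave 1 symbol for 23978 probes and none for 1719.

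As in the study's methods, log2 signals were brought to Z scores within each array, then multiplied by the mean SD of the arrays (1.462). Repeat arrays were averaged. Groups were compared in limma 3.58.1 (R 4.3.3; lmFit and eBayes, leaving 10 residual degrees of freedom). P-values were adjusted by Benjamini-Hochberg over 11143 probes. Pairs of groups were also compared by two-sided exact permutation. The steps were tested on simulated data. All member probes and, per other list and comparison, the gene with the smallest p are named. Members and lists were chosen with earlier results of these data known. Alternatives were quantile normalization, median centring, neqc (offset 16), the deposited Z scores, other probe filters (none; detection p under 0.01), only the groups compared, a replicate block, 1 array per mouse, array weights (statmod 1.5.0), an intensity trend and leaving out each mouse. The number of arrays limits the precision. Replicates were separate mice. The study's legend for these arrays gives fewer EOW mice than the labels do. All EOW mice of the labels were used here.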

Additional observations from a re-analysis of the deposited data

Results flagged for a closer look

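In 24 sets of mice (8 probes in 3 groups), 3 had a mouse whose gap to the nearest other was large against the range of its group by Dixon's criterion, which chance alone meets in about 1 of 20 sets. For Ep300, 2WM mouse 2 was at 1.18 and the nearest other 2WM mouse at 0.864, a gap of 0.837 of the range of the group. For Kat5, SD mouse 4 was at −0.0621 and the nearest SD mouse at 0.148, a gap of 0.846 of the range. For Kat7, EOW mouse 4 was at −1.26 and the nearest EOW mouse at 0.0868, a gap of 0.791 of the range, in the liver whose 4 tested T cell markers were at 3.75.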

How the results depend on the processing

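The number of member probes at an adjusted p under 0.05 stayed at 0 in every comparison under all 25 alternatives (24 for the F test, for which a fit of 2 groups could not be made). Over all 11143 probes the corresponding count of 0 reached 12 in EOW and 41 in 2WM against SD and 4 in EOW against 2WM, each with array weights. At an unadjusted p under 0.05, the count of 2 in EOW against SD was 1 with neqc, with only the 2 groups, with the replicate block and with an intensity trend, and 0 to 2 with a mouse left out (0 without SD mouse 1 or SD mouse 3). The count of 1 in 2WM against SD was 2 with median centring, 3 with array weights and 1 to 3 with a mouse left out (3 without SD mouse 4). The count of 1 in EOW against 2WM was 2 with array weights. The labels do not say that replicate numbers pair the mice. Correlations of same-numbered mice ran from −0.381 to 0.328, which cannot settle whether they are paired. The replicate block changed no other count of member probes at these thresholds.

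Of the 24 member differences, 8 changed sign under some alternative, all with limma adjusted p of 0.925 to 0.998 as reported. In EOW against SD, Ep300 was 0.04506 with the replicate block and 0.04074 with array weights, Kat8 was 0.03413 with the replicate block and 0.0973 with array weights, Kat5 was 0.007483 with quantile normalization, 0.006908 with neqc and 0.01775 with first arrays, and Hat1 was −0.09445 with median centring. In 2WM against SD, Kat5 was −0.02376 and Hat1 −0.1468 with median centring, and Hat1 was −0.01599 with first arrays and −0.007275 with array weights. In EOW against 2WM, Kat2a was −0.002618 with first arrays and −0.004396 with array weights, and Hat1 was −0.007001 with second arrays. Leaving out a mouse gave, in EOW against SD, −0.1053 to 0.06873 for Ep300, −0.0766 to 0.01465 for Kat5, −0.08584 to 0.03413 for Kat8 and −0.06571 to 0.1528 for Hat1. In 2WM against SD it gave −0.02652 to 0.06082 for Kat5 and −0.07437 to 0.08922 for Hat1, and in EOW against 2WM −0.05403 to 0.07415 for Kat2a and −0.09953 to 0.1189 for Hat1. Replicate number 5 existed only in EOW. In EOW against SD, the replicate block therefore gave the same log2 fold changes as leaving out EOW mouse 5 (Ep300 0.04506, Kat8 0.03413). The causes of the other changes of sign were not tested. Against SD in EOW, the replicate block left 5 of 8 member probes negative.

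With median centring the log2 fold change against SD had a median of −0.0883 (EOW) and −0.121 (2WM) over the tested probes. Relative to that median, Ep300 in 2WM was at −0.408, the Kat2b probes in EOW at −0.275 and −0.372, and Hat1 at −0.00617 in EOW and −0.0262 in 2WM. The share of higher probes among those at an unadjusted p under 0.05 went from 40.4% to 15.2% in EOW against SD, from 37.5% to 6.85% in 2WM against SD and from 49.3% to 65.2% in EOW against 2WM, and was 48.3% in 2WM against SD with quantile normalization. Of the genes in the other lists, Morf4l1 in EOW was −0.03551 and Brd2 in 2WM −0.1394 with median centring, and Brd2 was −0.04754 with array weights and −0.03543 to 0.1315 with a mouse left out. Brd9 in EOW against 2WM was −0.01784 to 0.2407 with a mouse left out. These alternatives for the other lists were chosen after the data were seen. The number of other list genes at an unadjusted p under 0.05 ran from 2 to 9 in EOW and from 1 to 9 in 2WM against SD, and from 0 to 6 between EOW and 2WM.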
